A study of Mus musculus with 9 samples.

Results

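Atrogin-1 (gene Fbxo32) and the muscle RING finger proteins MuRF1 (Trim63), MuRF3 (Trim54) and MuRF2 (Trim55) are ubiquitin ligases made mainly in striated muscle. These 4 genes were chosen by symbol from the 23238 gene symbols counted in mouse gastrocnemius, and all 4 passed the filter on low counts that left 12859 genes to test. The study held 3 libraries in each of 3 groups of C57BL/6 mice, an inbred strain, all female, labelled 4 weeks old and acclimated for 7 days. Normal mice, which the titles call untreated, had 4 saline injections on alternate days and distilled water orally over 9 days. Cisplatin mice had the DNA-damaging platinum drug cisplatin in each of the 4 injections (3 mg/kg, intraperitoneal) and the same water. RP mice had this cisplatin schedule together with oral RP at 100 mg/kg over the 9 days. What RP stands for is not spelled out with the samples, and the title of the series refers to a Paeonia lactiflora extract and to these E3 ligases. No group had RP without cisplatin, so its effect on undosed muscle was not measured.

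A ubiquitin ligase picks the protein to be tagged with ubiquitin, and the proteasome then degrades it. Atrogin-1 is an F-box protein, the substrate-binding subunit of a multi-subunit ligase (SCF) built on the cullin Cul1. The MuRFs are single-chain ligases with a RING finger, which binds an E2 enzyme carrying the ubiquitin, and with a COS box that binds microtubules. They sit at the M-line and Z-disc of the sarcomere and bind the giant protein titin. Fbxo32 and Trim63 are the classic marker genes of muscle atrophy, and FoxO transcription factors and the glucocorticoid receptor are known to switch them on.

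The 4 genes lie on separate chromosomes of GRCm38. Fbxo32 occupies chr15:58175879-58214932 on the minus strand, Trim63 chr4:134315120-134329629, Trim54 chr5:31116712-31137630 and Trim55 chr3:19644474-19692421, the last 3 on the plus strand. All are protein coding, and their annotated transcripts have up to 9 exons, or 10 in Trim55. None shares its 3′ end, where the tags were read, with another annotated gene. Other annotated genes do overlap their bodies. These are the antisense genes Gm15943 in Fbxo32 (458 bases) and Gm15469 in Trim54 (1592 bases), and BC002189 on the strand of Trim55 (598 bases). Gm15469 reaches position 31137344, close to the 3′ end of Trim54. None of these was among the counted symbols.

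Because the transcripts of Fbxo32, Trim63 and Trim54 moved together, the 250 bases before the RefSeq start were read for the members present in the RefSeq promoter table (GRCm38.p6), namely Trim63 and Trim54. Capitals mark matches, on either strand, to a FoxO site (TGTTTAC), a full glucocorticoid receptor site (GAACA and TGTTC with any 3 bases between them), an E-box (CANNTG, bound by myogenic factors) and a TATA box (TATAAA). The motifs were chosen with the sequences in view, and no marked match overlaps another. Trim63 is shown for its adjoining receptor and FoxO sites, and Trim54 as the relative that responded less, at chr4:134314870-134315119 and chr5:31116362-31116611, both on the plus strand.
Trim63: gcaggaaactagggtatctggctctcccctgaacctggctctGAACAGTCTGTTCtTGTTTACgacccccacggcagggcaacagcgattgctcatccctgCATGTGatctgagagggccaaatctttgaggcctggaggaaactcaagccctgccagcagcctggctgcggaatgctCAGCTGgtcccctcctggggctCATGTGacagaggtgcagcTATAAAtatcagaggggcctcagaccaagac
Trim54: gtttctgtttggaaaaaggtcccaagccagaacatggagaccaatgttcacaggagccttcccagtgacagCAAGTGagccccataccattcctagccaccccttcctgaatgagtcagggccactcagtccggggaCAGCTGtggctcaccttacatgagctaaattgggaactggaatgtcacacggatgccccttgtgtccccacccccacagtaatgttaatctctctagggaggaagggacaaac

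In Trim63 the receptor site begins 208 bases before the start and the FoxO site 194 bases before it, with 1 base between them, and a TATA box lies 31 bases before it. Of 32851 RefSeq windows of this length, 0.0396% hold the receptor site and 3.17% the FoxO site. Trim63 was the only window with both at most 5 bases apart. Since the motifs were chosen with this window in view, that describes the window and is no independent support. In Trim63 3 E-boxes were found and in Trim54 2, where 66.2% of windows hold one. The Trim54 window holds neither the FoxO site, nor the full receptor site, nor the TATA box, which 12.4% of windows hold. It ends at 31116611, short of the gene start given above (31116712), and the bases between were not read. The Trim63 window ends at 134315119, next to its gene start given above. A receptor half-site (TGTTCT), not marked and present in 16.1% of windows, matched once in each gene, 200 bases before the start in Trim63, where it overlaps the full site, and 222 bases before it in Trim54. A match describes letters, not binding.

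Library totals were 8196030 to 10678342 counts, with 14756 to 15527 genes detected. As a check of the labelled tissue, all 12 skeletal fibre markers were detected in every group. Their summed level, in counts scaled to a common library size (CPM), ranged over 147393 to 171373 among Normal libraries, 114004 to 150708 among Cisplatin and 160329 to 182236 among RP libraries. The ribosomal precursor Rn45s took 12.6 to 12.8%, 9.23 to 12.1% and 7.38 to 11.8% of counts. CPM below are scaled by TMM, a correction for library composition. Fold changes are edgeR log2 estimates with their standard error (SE), and a gene was called, and is said to rise or fall, at an adjusted p under 0.05 over all genes tested.

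Fbxo32, which directs the SCF ligase to factors such as MyoD and the translation factor eIF3f, was measured at 343, 472 and 334 CPM in the Normal libraries. The Cisplatin libraries held 8155, 10204 and 11868 CPM, and the RP libraries 550, 292 and 659 CPM. Every Cisplatin library was more than an order of magnitude above every other library, while the RP libraries ran from below the lowest to above the highest Normal library. The RP spread was the widest of this gene, with an SD that was 37.7% of the mean against 20.1% in Normal and 18.5% in Cisplatin. Fbxo32 rose by a log2 fold change of 4.72 ± 0.30 in Cisplatin against Normal (edgeR adjusted p = 7.85e-08), which placed it 13th from the top of the 12859 genes. It fell by 4.33 ± 0.29 in RP against Cisplatin (edgeR adjusted p = 2.41e-07), the 14th from the bottom.

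Trim63, whose protein MuRF1 ubiquitinates myosin and other thick filament proteins, was at 490, 659 and 486 CPM in Normal. In Cisplatin it was at 8811, 10896 and 11299 CPM, and in RP at 587, 462 and 797 CPM. As for Fbxo32, the Cisplatin group stood clear of both others and the RP and Normal groups overlapped. The second RP library was the lowest of its group and the third the highest for both genes, and the second Normal library was the highest Normal library for both. The log2 fold change was 4.25 ± 0.23 in Cisplatin against Normal (edgeR adjusted p = 4.56e-08) and -4.07 ± 0.23 in RP against Cisplatin (edgeR adjusted p = 8.11e-08), the 16th from the top and the 19th from the bottom of the genes tested. Fbxo32 and Trim63 together took 1.73 to 2.08% of all counts in the Cisplatin libraries, against 0.0816 to 0.113% among Normal and 0.0821 to 0.147% among RP libraries.

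Trim54, whose protein MuRF3 stabilises microtubules and helps degrade the muscle proteins FHL2 and filamin C, changed in the same directions by less. Its level was 96.7, 134 and 108 CPM in Normal, 402, 389 and 442 CPM in Cisplatin, and 168, 137 and 140 CPM in RP. The 3 groups did not overlap, and RP sat just above Normal. Trim54 rose by 1.87 ± 0.15 in Cisplatin against Normal (edgeR adjusted p = 4.61e-07), to 3.65 times the Normal level, and fell by 1.47 ± 0.15 in RP against Cisplatin (edgeR adjusted p = 4.44e-06). That put it 358th from the top and 503rd from the bottom of the genes tested.

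Trim55, whose protein MuRF2 links titin with autophagy adaptors and with the transcription factor SRF, went the other way. It was at 13.0, 13.8 and 14.0 CPM in Normal, 6.93, 6.75 and 11.4 CPM in Cisplatin, and 8.17, 12.4 and 11.7 CPM in RP. Every Normal library was above all others, and the Cisplatin and RP groups overlapped. These levels rest on 59 to 125 counts a library. Before TMM scaling, the 95% counting interval (exact Clopper-Pearson) of the third Cisplatin library, 7.86 to 11.9 CPM, met that of the first Normal library, 10.8 to 15.9 CPM. Such intervals cover counting error only. Trim55 fell by 0.70 ± 0.24 in Cisplatin against Normal (edgeR adjusted p = 0.0256) with groups that did not overlap. The call was lost without Normal replicate 2 (adjusted p = 0.0573) or 3 (0.0654), or without Cisplatin replicate 1 (0.0902) or 2 (0.102), over a range of 0.00446 to 0.102 across the alternatives. In RP against Cisplatin its log2 fold change was 0.37 ± 0.24 and was not called (edgeR adjusted p = 0.229, range over the alternatives 0.0433 to 0.518). Without Cisplatin replicate 3, the high library of its group, the value was 0.64 (adjusted p = 0.0433).

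**Figure D1:**
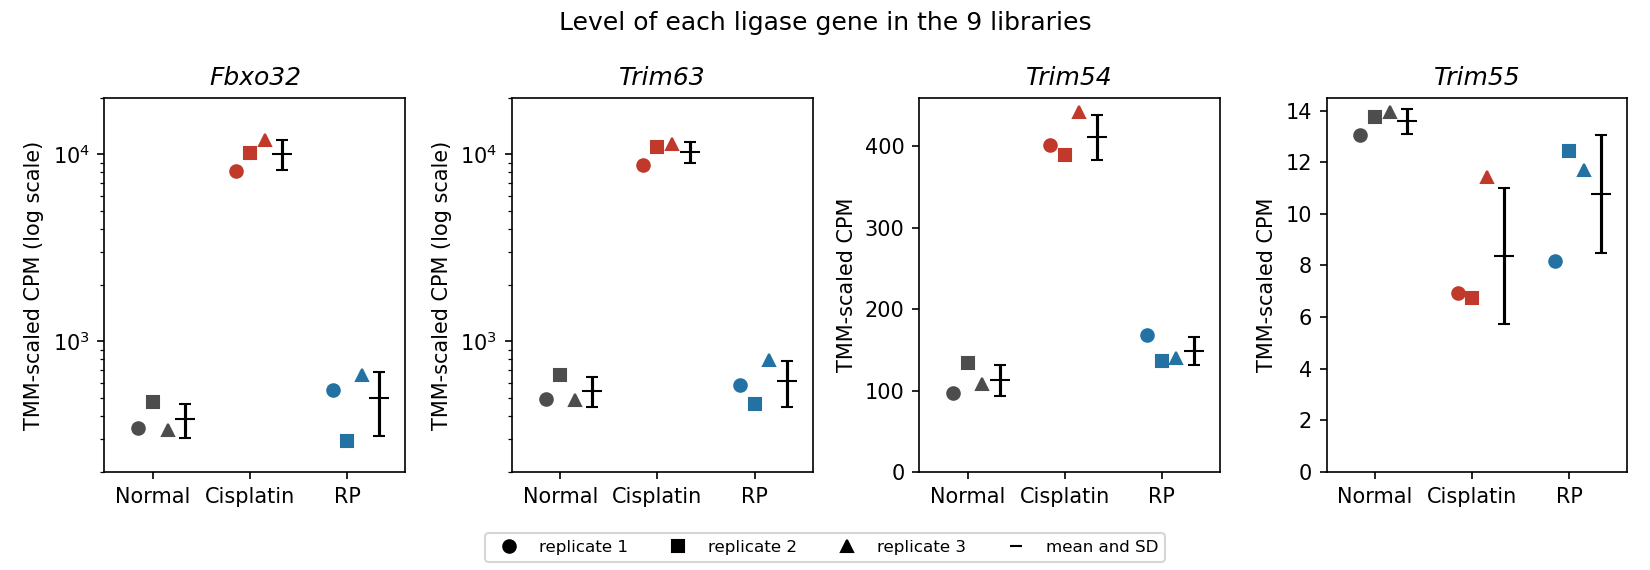
TMM-scaled CPM of the 4 genes by group, with 1 symbol per library and the mean with its SD beside them; the axes of Fbxo32 and Trim63 are logarithmic and those of Trim54 and Trim55 are linear from 0. Cisplatin libraries are high for Fbxo32 (8155 to 11868 CPM), Trim63 and Trim54, and low for Trim55 (6.75 to 11.4 CPM).

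All 4 members were thus called in Cisplatin against Normal, 3 higher and 1 lower, where 54.5% of all genes tested were called (26.3% higher and 28.2% lower) and 62.2% had groups that did not overlap. In RP against Cisplatin 3 of 4 were called, all lower, against 48.8% of all genes (24.6% higher and 24.2% lower; 3167 and 3110 genes, or 3678 and 2435 with library size as the only scaling), and the same 3 had groups that did not overlap, against 56.8%. Being called was therefore common in both comparisons, and the size of the Fbxo32 and Trim63 changes, not the call, was what stood at the edge of the distribution. With 3 libraries against 3, an exact permutation test on a single gene cannot go below p = 0.1 (two-sided). That value was reached by all 4 genes in Cisplatin against Normal, and by Fbxo32, Trim63 and Trim54 in RP against Cisplatin. Trim54 and Trim55 also reached it in RP against Normal, where neither was called. Since the labels do not tie each sample to 1 animal, the p-values here describe sample-to-sample spread, which may be technical. In whole muscle, more cells of a type and more RNA per cell cannot be told apart.

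RP against Normal asks how far the ligase transcripts in the muscle of mice given both agents lay from those of undosed mice. The groups ordered as Normal, RP, Cisplatin from low to high by mean for Fbxo32 (383 ± 77.1, 500 ± 189 and 10076 ± 1860 CPM; SD, n = 3), Trim63 (545 ± 98.9, 615 ± 170 and 10335 ± 1335 CPM) and Trim54 (113 ± 19.0, 148 ± 17.1 and 411 ± 27.6 CPM). For Trim55 the order was reversed, with 13.6 ± 0.481 CPM in Normal, 10.8 ± 2.28 in RP and 8.37 ± 2.65 in Cisplatin. The neighbours Normal and RP were not separated by the test for any member, nor were RP and Cisplatin for Trim55. The log2 fold changes in RP against Normal were 0.39 ± 0.26 for Fbxo32 (edgeR adjusted p = 0.566), 0.18 ± 0.20 for Trim63 (0.776), 0.39 ± 0.14 for Trim54 (0.270) and -0.34 ± 0.24 for Trim55 (0.592).

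None of the 4 was called in that comparison by edgeR, DESeq2 or limma-voom, and 1, Trim54, had an unadjusted p under 0.05 (0.0168). The lowest RP library of Trim54 (137 CPM) was above the highest Normal one (134 CPM) by little, and 19.2% of all genes had groups that did not overlap here. Groups of Trim55 did not overlap either after TMM scaling (RP up to 12.4, Normal from 13.0 CPM) but did before it. These values moved with single libraries: Fbxo32 was at 0.14 without RP replicate 3 and 0.66 without RP replicate 2, and Trim55 at -0.17 without RP replicate 1. Trim63 turned to -0.051 without RP replicate 3, was at 0.11 without Normal replicate 1 or 3, 0.34 without Normal replicate 2 and 0.35 without RP replicate 2. Over all genes 0.505% were called (65 of 12859; 0.187% higher and 0.319% lower). That is 24 higher and 41 lower, or 36 and 24 with library size as the only scaling. The total was 22 without Normal replicate 1 or RP replicate 1, 28 without RP replicate 3, 33 without Normal replicate 3, 40 without Cisplatin replicate 2, 100 without Normal replicate 2, 102 without Cisplatin replicate 3 and 116 without RP replicate 2.

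**Figure D2:**
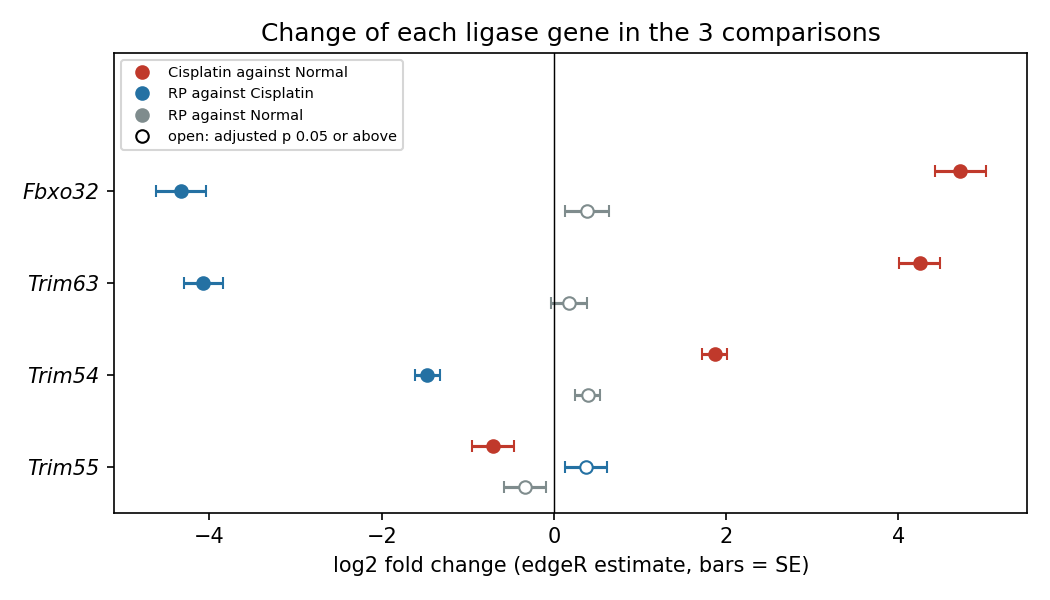
Log2 fold change (edgeR estimate) of each gene in the 3 comparisons, with bars for the SE and open symbols where the adjusted p was 0.05 or above. The values of RP against Normal lie between -0.34 and 0.39, whereas Fbxo32 is at 4.72 in Cisplatin against Normal and -4.33 in RP against Cisplatin; the comparisons share libraries.

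Whether members changed by unequal amounts was tested on the log2 ratio of their counts within each library, which does not depend on scaling. The ratio of Fbxo32 to Trim63 was -0.51, -0.48 and -0.54 in Normal, -0.11, -0.09 and 0.07 in Cisplatin, and -0.09, -0.66 and -0.27 in RP. It was 0.47 ± 0.06 (SE) higher in Cisplatin than in Normal, so that Fbxo32 had the larger of these 2 big rises, and the groups did not overlap. The RP libraries ran from below the Normal range into the Cisplatin range, and the RP ratio differed from Cisplatin by -0.30 ± 0.18 (exact permutation p = 0.3) and from Normal by 0.17 ± 0.17 (exact permutation p = 0.4). The former was -0.14 without RP replicate 2, and the latter was 0.04 without RP replicate 1 and 0.33 without RP replicate 2.

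Within the MuRF family the changes were graded. The ratio of Trim63 to Trim54 was 2.37 ± 0.11 higher in Cisplatin than in Normal, that of Trim63 to Trim55 4.99 ± 0.25 higher and that of Trim54 to Trim55 2.62 ± 0.23 higher. Each of these ratios had non-overlapping groups. In RP against Cisplatin the same ratios differed by -2.62 ± 0.26, -4.48 ± 0.37 and -1.86 ± 0.34, again without overlap. In RP against Normal the ratio of Trim54 to Trim55 was 0.76 ± 0.31 higher with groups that did not overlap, and those of Trim63 to Trim54 (-0.25 ± 0.25) and to Trim55 (0.51 ± 0.33) overlapped. Without RP replicate 1 the first of these was 0.48. Trim63 to Trim54 was at -0.14, -0.11 and -0.49 without RP replicate 1, 2 and 3 respectively, and Trim63 to Trim55 at 0.82 without RP replicate 2. Over the 12 differences computed, the exact permutation p was 0.1, the smallest these group sizes allow, for 8, and the Benjamini-Hochberg adjusted exact permutation p ran from 0.15 to 0.4, so none could pass 0.05.

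**Figure D3:**
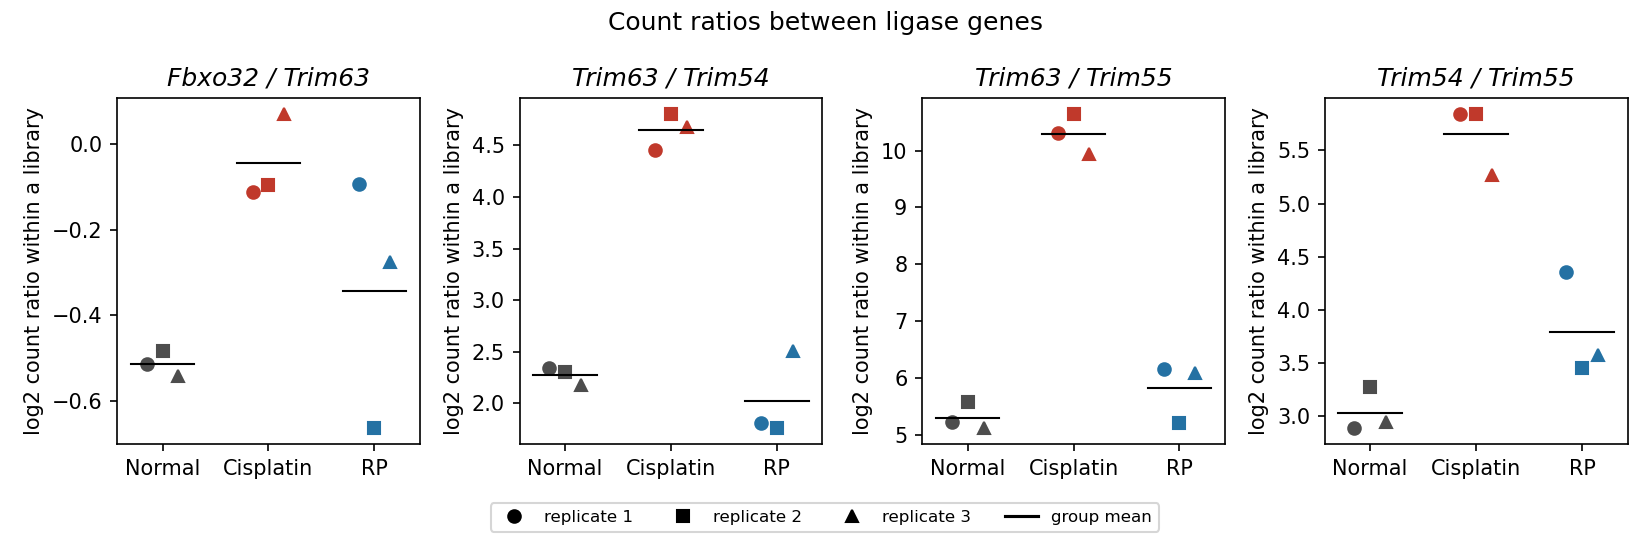
Log2 ratio of the counts of paired ligase genes within each library, by group, with a line at the group mean; the vertical axes differ and do not start at 0. The ratio of Trim63 to Trim55 goes from a mean of 5.31 in Normal to 10.3 in Cisplatin and 5.82 in RP.

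By correlation of log2 CPM over the 9 libraries, the pattern most like that of Trim63 among 9441 genes whose mean reached 5 CPM was that of Fbxo32 (r = 0.9977). For Fbxo32 the closest were Myo18a (0.9983), Trim63, Lrrc58 (0.9971), Cnksr1 (0.9968) and Fam21 (0.9967), and for Trim63, after Fbxo32, they were Lrrc58 (0.9968), Dnajc2 (0.9954), Larp1 (0.9954) and Myo18a (0.9951). Cnksr1 stood at 25.5, 364 and 33.1 CPM in Normal, Cisplatin and RP. The closest to Trim54 were Ssu72 (0.9966), Nmt1 (0.9959), Epb4.1l4aos (0.9949), Tango2 (0.9948) and Sesn1 (0.9947), the last a stress-induced inhibitor of mTORC1 at 29.6, 275 and 48.5 CPM. Synpo2l (0.941), 2010315B03Rik (0.936), Nfatc2 (0.9347), Clcn4-2 (0.9329) and Trim35 (0.9317) were closest to Trim55. These coefficients describe 9 libraries in 3 groups that share their library, depth and treatment, and the Cisplatin libraries stand apart for the first 3 members. Between members r was 0.977 for Fbxo32 with Trim54, 0.972 for Trim63 with Trim54, and -0.681, -0.664 and -0.724 for Trim55 with Fbxo32, Trim63 and Trim54.

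Around the members, 106 genes of 7 lists were tested, and their called counts stand beside 26.3% higher and 28.2% lower over all genes in Cisplatin against Normal, and 24.6% and 24.2% in RP against Cisplatin. The SCF partners of atrogin-1 were listed together with the related F-box gene Fbxo25, which is counted with them. In this list 5 of 12 rose and 3 fell in Cisplatin against Normal. The median log2 fold change was 0.19, where the median of all genes was -0.08. The scaffold Cul1, which carries the F-box adaptor at one end and the RING protein at the other, went from 82.7 ± 9.18 to 209 ± 60.4 CPM (1.34), and Cops5, which removes the cullin activator Nedd8, rose by 1.07. The adaptor Skp1a (0.29), Nedd8 (0.36) and Nae1 (0.55) rose by small amounts. Fbxo25, the F-box gene closest to Fbxo32, fell from 11.6 ± 1.30 to 5.19 ± 1.37 CPM (-1.15), as did Uba3 (-0.54) and Dcun1d1 (-0.45). The count of risers was 3 without any 1 of the Normal replicates and 2 without Cisplatin replicate 3, and that of fallers was 1 without Normal or Cisplatin replicate 2. With RP against Cisplatin, 3 of the 12 fell, among them Cul1 (-1.02), and 2 rose, Fbxo25 (1.17) and Uba3 (0.46), with a median of -0.05 against 0.07 for all genes, counts near or below the shares over all genes. The risers numbered 1 without any 1 of 7 libraries, namely the 3 Normal replicates, Cisplatin replicates 1 and 2, and RP replicates 2 and 3.

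Among the E2 enzymes described with MuRF1, which carry the ubiquitin, 5 of 10 rose in Cisplatin against Normal. These were Ube2g1 (0.84), Ube2l3 (0.73), Ube2j1 (0.73), Ube2d3 (0.59) and Ube2b (0.56). Ube2d1 fell by 0.81, and the median was 0.27. The fallers numbered 2 without Normal or Cisplatin replicate 3. The same 5 fell in RP against Cisplatin, and Ube2d1, at 128 ± 12.6 CPM in RP, and Ube2e3 (0.48) rose. Ube2n, Ube2e1 and Ube2d2a were called in neither comparison, with values between -0.33 and 0.27. Of the 6 other COS box TRIM genes, relatives of the MuRFs, only Mid2 had counts enough to test (5.61 ± 0.746, 4.30 ± 1.69 and 7.57 ± 1.59 CPM in Normal, Cisplatin and RP). It was not called in Cisplatin against Normal by edgeR, DESeq2 or limma-voom, and its unadjusted edgeR p was 0.246. It rose in RP against Cisplatin by 0.81 (edgeR adjusted p = 0.0433), a call lost without any 1 of Normal replicates 1 and 3, Cisplatin replicates 2 and 3 and RP replicates 2 and 3. Mid1, Trim9, Trim67, Trim36 and Trim46 had 4 to 50 counts over the 9 libraries.

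Of the transcripts of proteins described as substrates of these ligases, 12 of 21 tested fell and 4 rose in Cisplatin against Normal, where 28.2% and 26.3% of all genes did, with a median of -0.56. The light chain genes Myl1 (-1.49) and Mylpf (-1.19), the actin gene Acta1 (-1.25) and the myosin gene Myh2 (-2.28) were lower, and so was Myod1, the gene of a myogenic factor degraded through atrogin-1, at 15.4 ± 3.19 in Normal and 5.99 ± 1.91 CPM in Cisplatin (-1.35). The fallers included the slow fibre genes Myl2, Myh7 and Tnni1, named after their values were seen; slow fibre markers as a group fell too, as given with the markers of other cells. The myosin of the fastest fibres, Myh4, was at 26083 ± 4810 and 26304 ± 5019 CPM (0.01 ± 0.20, edgeR adjusted p = 0.966). Flnc, the filamin C gene, rose from 126 ± 29.4 to 601 ± 70.6 CPM (2.25), and Eif3f rose by 0.66. When RP was compared with Cisplatin, 11 of 21 rose and 3 fell (median 0.58), with Flnc back at 121 ± 28.5 CPM (-2.32) and Mylpf at 17289 ± 1588 CPM (1.33). The fallers there numbered 1 without RP replicate 2. Vim, a gene of non-muscle cells in adult muscle, had the smallest p of the list (-2.23 in Cisplatin against Normal and 1.66 in RP against Cisplatin).

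Of the genes of titin and its neighbours, 5 of 16 rose and 4 fell in Cisplatin against Normal, with a median of 0.04; these counts were near the 26.3% and 28.2% of all genes. The autophagy adaptors that form a complex with MuRF2 at titin were among the risers: Sqstm1 (p62) was at 339, 323 and 298 CPM in Normal, 1103, 1005 and 1332 CPM in Cisplatin and 414, 376 and 489 CPM in RP, and Nbr1 rose by 1.19. The M-band gene Myom1 rose by 0.77. Srf, whose protein MuRF2 binds, fell by 0.45, in the same direction as Trim55. The stretch-responsive Ankrd2 rose most (3.48), whereas Ldb3 (-1.24), the titin-bound protease gene Capn3 (-0.80) and Myom3 (-1.94) fell. Titin itself (Ttn) was not called, at 15553 ± 2071 CPM in Normal and 15686 ± 6313 in Cisplatin. The comparison of RP with Cisplatin had 4 of 16 lower, led by Ankrd2 (-4.19) and Sqstm1 (-1.43), and 3 higher, with a median of -0.22, again near the 24.2% and 24.6% of all genes.

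Upstream regulators held the highest list median, 0.78 in Cisplatin against Normal, where 14 of 27 rose and 5 fell. Foxo1, a direct activator of Fbxo32 and Trim63, was at 50.4, 96.9 and 72.8 CPM in Normal, 202, 284 and 234 CPM in Cisplatin and 136, 102 and 158 CPM in RP. It rose by 1.71 and fell in RP against Cisplatin by 0.87, and the RP libraries lay between the other groups without overlap; in RP against Normal the difference was 0.84 ± 0.22 (edgeR adjusted p = 0.128). Others of this list that rose were the transcription factor gene Cebpd (2.49), the interleukin-6 receptor gene Il6ra (2.47, to 111 ± 12.8 CPM, with 24.0 ± 9.56 CPM in RP), Stat3 (1.57), Nfkbia (1.31) and Rela (1.17), whereas Nfkb1 (0.10), Traf6 (0.57) and Mapk14 (-0.13) were not called. Akt1, whose kinase holds FoxO factors out of the nucleus, rose by 1.63, and Smad3 fell by 2.41. Those 3 and the following were named after their values were seen. Klf15, a glucocorticoid target known to activate both genes, rose by 1.26, while the receptor gene Nr3c1 fell by 0.57. Foxo3, with 74 counts in all libraries together, was at 0.94 ± 0.98 (edgeR adjusted p = 0.439). Of the other FoxO genes listed, Foxo6 fell by 2.45 ± 0.46 (edgeR adjusted p = 0.000528), from 9.60 ± 4.77 to 1.72 ± 0.873 CPM. Foxo4 was not called (0.01 ± 0.15, edgeR adjusted p = 0.971).

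Of the 27 regulators, 13 fell in RP against Cisplatin and 4 rose, with a median of -0.54: Il6ra (-2.20), Cebpd (-1.84), Rela (-1.23), Stat3 (-1.16) and Akt1 (-1.14) fell and Smad3 rose by 2.18. Other wasting ligases rose in 10 of 19 cases and fell in 2 in Cisplatin against Normal (median 0.45). Fbxo31 had the largest change (78.3 ± 9.76 to 550 ± 26.1 CPM, 2.81), followed among those named by the membrane repair gene Trim72 (1.51) and the N-end rule ligase gene Ubr4 (1.41). Trim32, the gene of a TRIM ligase that acts on desmin and thin filaments, fell by 1.02, and the fallers numbered 1 without Normal replicate 2. Mdm2 (1.09), Nedd4l (0.99) and Ubr2 (0.79) also rose. Between RP and Cisplatin, 8 of these 19 were lower in RP and 2 higher (median -0.44). In RP against Normal edgeR called 0 genes of the 7 lists. At an unadjusted p under 0.05 there were 9 regulators, 9 substrates, 2 titin neighbours, 2 other ligases, 1 SCF partner, 1 E2 and 0 COS box genes. DESeq2 called 1 regulator (higher) and 1 substrate (lower) there, and limma-voom called 0. With no filter on low counts 4 substrates and 1 titin neighbour were lower and 1 regulator higher, and without Normal replicate 2 edgeR called 3 regulators higher and 1 substrate lower.

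**Figure D4:**
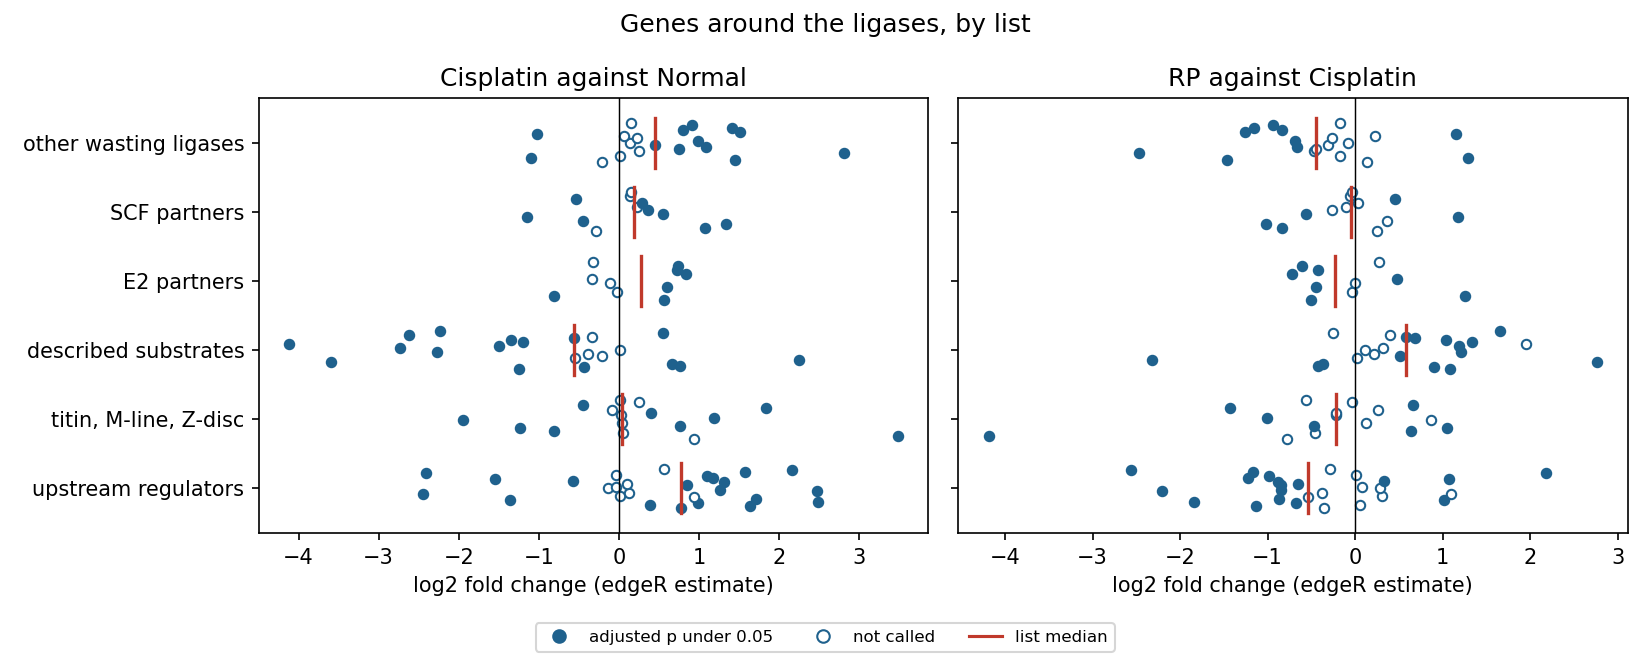
Log2 fold change (edgeR estimate) of each tested gene of 6 lists around the ligases, in Cisplatin against Normal (left) and RP against Cisplatin (right); filled points were called and red lines are list medians. The regulator median is 0.78 on the left and -0.54 on the right, and the substrate median -0.56 and 0.58; both panels share the Cisplatin libraries.

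In Cisplatin against Normal, markers of other cells mostly fell, while Fbxo32, Trim63 and Trim54 rose. Skeletal fibre markers fell in 5 of 12 cases and rose in 1 in that comparison. In RP against Cisplatin 5 of these 12 rose and 0 fell. Over all genes 28.2% fell in Cisplatin against Normal, and 24.6% rose in RP against Cisplatin. Fibroblast markers fell in 9 of 10 cases in Cisplatin against Normal and rose in 10 of 10 in RP against Cisplatin, and the summed level ranged over 4923 to 7335 CPM (Normal), 586 to 1209 (Cisplatin) and 3374 to 5173 (RP), with none at 0. The most abundant, Dcn, averaged 2123, 545 and 1857 CPM in these groups. All 7 tested tendon markers fell and then all 7 rose (summed 196 to 394, 5.99 to 12.4 and 55.9 to 85.3 CPM), with Kera at 0 in Cisplatin. All 9 slow fibre markers fell in Cisplatin against Normal (summed 403 to 4526, 125 to 607 and 420 to 760 CPM by group). That count was 4 without Normal or Cisplatin replicate 3 and 5 without Cisplatin replicate 2, and only Myl2 and Casq2 had groups that did not overlap. In RP against Cisplatin 1 of these 9 rose (1 to 7 across the alternatives). Their median in RP against Normal was -2.17, with 0 called (0 to 8 lower across the alternatives). Among other markers, 5 of 5 erythroid, 7 of 7 adipocyte, 8 of 9 macrophage, 4 of 6 Schwann cell and 4 of 8 endothelial genes fell. The macrophage gene Cd68 (2.22) and the endothelial gene Cldn5 (1.92), named after their values were seen, rose. Slc4a1 was the erythroid marker at 0 in Cisplatin, and the globin gene Hba-a1 averaged 4316, 33.2 and 168 CPM. All 5 tested erythroid markers were also lower in RP than in Normal, where 0.319% of all genes were. So were 3 of 7 tendon markers (1 to 6 across the alternatives) and 1 of 10 fibroblast markers, with 0 higher in these lists. The endothelial count was 2 without Normal replicate 1 or 2 or Cisplatin replicate 2. The part of these differences in the ligase results was not tested. Without Rn45s the Fbxo32 and Trim63 values of Cisplatin against Normal were 4.73 and 4.26.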

How the data were processed

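The 9 gastrocnemius RNA samples were made into Lexogen QuantSeq libraries from 500 ng of total RNA, per the labels' protocols; this kit reads a tag at the 3′ end of a transcript, so counts are not divided by gene length. The authors deposited raw read counts per gene symbol, 1 table per sample. Bowtie2, edgeR and the mm10 build are named per the submitters' processing notes; program versions, the counter, strandedness and gene models were not given in the sources used here, so antisense reads cannot be told apart. Rows sharing a symbol (79 rows, 35 symbols) were summed, leaving 23238 symbols.

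The fit was edgeR 4.0.16 in R 4.3.3 with filterByExpr, TMM scaling and glmQLFTest over all 9 libraries, with Benjamini-Hochberg adjustment over 12859 genes; SE is the log2 fold change over the square root of F. In simulated data for Cisplatin against Normal (12540 genes), the test recovered 54 of 100 genes moved by log2 1 and 86 of 100 moved by log2 2. Of 12340 unchanged genes 8 were called. Only these few genes were moved there, equally up and down from the Normal means, whereas 54.5% of genes were called in the real comparison. The simulated shares therefore do not carry over to these data. Alternatives were RLE and library size scaling, other filters, DESeq2 1.42.0, limma-voom (limma 3.58.1), the compared groups alone, a replicate block, no Rn45s and leaving out each library. No replicate pair matched as copies would (chi-square per degree of freedom 12.1 to 31.0).

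The members and the lists were chosen with earlier results of these data known. Named genes were the 4 members, up to 8 genes of each list by p in Cisplatin against Normal (all genes of lists of 10 or fewer), the 2 highest or the absent genes of marker lists, and the 5 closest patterns per member; exceptions are marked, Ttn was named after its values were seen, and 1 gene under the rule is not reported here. Positions come from the M21 GENCODE annotation (GRCm38, which mm10 also denotes); 2 of 4 members matched the promoter table. Figures used matplotlib 3.10.9 in Python 3.11.15.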

Additional observations from a re-analysis of the deposited data

How the results depend on the processing

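Fbxo32, Trim63 and Trim54 kept their direction and their call in Cisplatin against Normal and in RP against Cisplatin under all 18 alternatives: Fbxo32 ranged from 4.60 to 4.91 and from -4.59 to -4.06, Trim63 from 4.16 to 4.42 and from -4.31 to -3.90, and Trim54 from 1.78 to 2.02 and from -1.57 to -1.32 on the log2 scale. Trim55 in Cisplatin against Normal was called in 14 of 18 and lost its call when 1 of 4 libraries was left out (leave-one-out values -0.97 to -0.56). In RP against Cisplatin its leave-one-out values were 0.23 to 0.64, and in RP against Normal those of Trim63 were -0.051 (without RP replicate 3) to 0.35. With library size as the only scaling the median of all genes in RP against Cisplatin moved from 0.07 to 0.21.

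Genes called in RP against Normal (65, with 24 higher and 41 lower) were 293 (123 and 170) with no filter and 229 (103 and 126) with DESeq2, and 24 were lower with library size alone. Leaving out 1 library gave 22 to 116, with 8 to 59 higher and 14 to 62 lower. The cause was not tested. Among the list counts that moved by more than 1.5 times with another setting were 3 risen SCF partners in place of 5 in Cisplatin against Normal (library size, 5 CPM filter, compared groups alone), 1 in place of 2 in RP against Cisplatin (no filter, DESeq2, compared groups alone, replicate block), 2 or 3 fallen E2 genes in place of 1 (library size, 5 CPM filter), 0 COS box genes in place of 1 (compared groups alone, replicate block) and 1 fallen substrate in place of 3 (library size). Marker counts that moved included 4 fallen tendon genes in place of 7 (5 CPM filter) and, in RP against Cisplatin, 4 or 3 risen in place of 7 (5 CPM filter, limma-voom, compared groups alone), and 0 to 3 fallen fibroblast genes in place of 1 in RP against Normal.

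Replicate numbers are shared by the groups' titles. Deviations of same-numbered libraries from their group means had correlations of -0.124 to 0.158. With 3 libraries a group, this cannot show whether they shared anything besides the number. With the number as a replicate block 6988, 6292 and 61 genes were called in the 3 comparisons, and Fbxo32 was at 4.69 in Cisplatin against Normal. Among the members, depth limits Trim55 most, at 59 to 125 counts a library.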
